A study of Mus musculus with 16 samples.

Results

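The genes described here are 58 listed factors of ribosome biogenesis and of the nucleolus, named one by one for their function. The list was drawn up with earlier results of these data known. Where several probe sets named a gene, the one with the highest average level over the 16 arrays stood for it. A probe set naming that gene alone was found for 57 of the 58, out of 18193 genes measured, and Mrto4, whose probe set also names other genes, has no value. The genes were grouped by role: 5 in pre-rRNA transcription, 3 abundant nucleolar phosphoproteins, 4 of box C/D and 4 of box H/ACA small nucleolar ribonucleoproteins (snoRNPs), 14 of the small subunit processome, 5 of 40S export and maturation, 17 measured in 60S assembly and 5 RNA helicases.

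Ribosomes are built in the nucleolus, where RNA polymerase I makes a long precursor ribosomal RNA. Guided by small nucleolar RNAs, snoRNPs modify that precursor, while the small subunit processome and the 60S assembly factors fold, cut and package it into the subunits that leave for the cytoplasm. A resting T cell has a small nucleolus, and the nucleolus enlarges when antigen drives the cell into growth and division, with MYC as one of the best known activators of the genes involved.

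The T cells were CD4+ lymph node cells of mice transgenic for the AND T cell receptor, marked by CD90.1, injected into B10.BR recipients of 6 to 8 weeks. All recipients carried TIM, the transgene for a moth cytochrome c peptide under a doxycycline-controlled promoter, and the recipients that made the antigen also carried Ii-rTA, a doxycycline-responsive activator under the invariant chain (Ii) promoter, which is active in antigen-presenting cells. For transient antigen doxycycline was given from day -1 to day 0, and for persistent antigen from day -1 to day 3. The recipients without antigen lacked Ii-rTA; their arrays are titled as without doxycycline, whereas the protocols of 3 of these 5 arrays state doxycycline, so absence of Ii-rTA is what all 5 share. PBS or FGK45.5, an agonistic antibody to CD40 that activates dendritic cells, was injected on day -1, cells were transferred on day 0, and CD4+CD90.1+ cells were sorted 60 h after transfer. There were 3 arrays each for no antigen with PBS, transient antigen with PBS, persistent antigen with PBS and persistent antigen with anti-CD40. No antigen with anti-CD40 and transient antigen with anti-CD40 had 2 arrays each. The labels do not say that arrays of a group came from separate animals, so the p-values measure the spread between these arrays, part of which may be technical.

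Values are log2(intensity + 1). Arrays with the same replicate number deviated together from their group means, and replicate 1 also differed from replicates 2 and 3 in the Y-linked gene Eif2s3y (8.86 to 9.93 in its 6 arrays against 2.61 to 3.09 in the others). The median over the members was 6.76 to 7.92 in the arrays of replicate 1, 6.41 to 7.13 in those of replicate 2 and 6.70 to 7.24 in those of replicate 3. Comparisons are therefore given both from the fit of the 6 group means and from the same fit with the replicate number as a block (the blocked fit), since the block changed most counts of calls. T cell markers were well expressed in every group, with summed intensities of 8490 to 12900 over 11 genes, against 231 to 450 over 7 B cell genes and 184 to 343 over 8 dendritic cell and macrophage genes. In RNA from sorted bulk cells, fewer cells expressing a gene and less RNA per cell cannot be told apart.

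Promoters of the members were searched for the E-box CACGTG, the site of MYC and its partner MAX, and for CCGGAAG, a core site of ETS-family factors, because many members moved together in the comparisons described after this. RefSeq windows (GRCm38.p6, 250 bases before to 50 after the start) were matched for 52 of the 58 genes, and not for Npm1, Fbl, Bop1, Rrp12, Rrs1 and Gnl2. Below are the 130 bases, 5′ to 3′, before the start used by the window of each of 9 members (a start inside the annotated gene for Nop58 and Gar1), with both words in capitals on either strand: the leading gene Nolc1, 3 further members with ETS words there, 4 members with an E-box there, and Nop58, which has neither.
Nolc1: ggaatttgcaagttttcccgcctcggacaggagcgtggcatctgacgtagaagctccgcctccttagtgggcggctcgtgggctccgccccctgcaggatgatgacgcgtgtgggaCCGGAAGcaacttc
Gar1: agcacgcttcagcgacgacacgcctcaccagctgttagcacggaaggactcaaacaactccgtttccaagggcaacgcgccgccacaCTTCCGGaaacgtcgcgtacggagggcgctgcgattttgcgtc
Nhp2: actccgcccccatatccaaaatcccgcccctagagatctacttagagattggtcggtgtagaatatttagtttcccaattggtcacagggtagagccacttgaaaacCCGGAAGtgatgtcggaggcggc
Ltv1: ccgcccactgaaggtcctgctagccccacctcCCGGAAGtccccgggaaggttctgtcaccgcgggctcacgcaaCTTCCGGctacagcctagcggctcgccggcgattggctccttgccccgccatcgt
Utp18: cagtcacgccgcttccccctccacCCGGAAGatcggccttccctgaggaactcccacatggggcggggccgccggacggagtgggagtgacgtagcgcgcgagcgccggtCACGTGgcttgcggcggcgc
Imp4: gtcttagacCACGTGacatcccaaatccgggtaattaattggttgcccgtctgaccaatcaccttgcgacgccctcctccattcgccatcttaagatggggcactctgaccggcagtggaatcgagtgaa
Rrn3: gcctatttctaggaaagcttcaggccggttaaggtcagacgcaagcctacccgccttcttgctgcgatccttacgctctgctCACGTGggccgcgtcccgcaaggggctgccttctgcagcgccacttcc
Nop2: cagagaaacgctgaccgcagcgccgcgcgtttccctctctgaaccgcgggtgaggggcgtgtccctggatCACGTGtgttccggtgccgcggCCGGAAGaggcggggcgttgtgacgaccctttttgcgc
Nop58: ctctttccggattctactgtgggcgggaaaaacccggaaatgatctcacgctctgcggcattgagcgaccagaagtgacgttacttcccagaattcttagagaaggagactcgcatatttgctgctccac

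On the plus strand these stretches lie at chr19:46075717-46075846 (Nolc1), chr11:51619643-51619772 (Nhp2), chr1:34439699-34439828 (Imp4), chr16:13780569-13780698 (Rrn3), chr6:125131753-125131882 (Nop2) and chr1:59684876-59685005 (Nop58). On the minus strand they lie at chr3:129831397-129831526 (Gar1), chr10:13193138-13193267 (Ltv1) and chr11:93885767-93885896 (Utp18). Over the whole windows CACGTG was found in 11 of the 51 measured members with a window (21.6%), in 7.15% of all 32851 windows and in 10.2% of genes with a window and a probe set. CCGGAAG was found in 20 of the 51 (39.2%), in 8.86% of all windows and in 15% of those genes. Each word was searched on both strands and counted on its own, and a gene with several windows counted once. A match is a stretch of letters in this window and was not tested for binding.

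Anti-CD40 against PBS under transient antigen asks what activating the dendritic cells adds when antigen is brief, and it was the comparison with the most members called. In the blocked fit 33 of the 57 members rose with anti-CD40 and none fell, against 10.5% of all genes called in either direction. With dim genes (no group mean above the median probe set) left out, 17.5% of genes were called. Without the block 2 members rose, against 0.638% of all genes. The median difference over the members was 0.78 in the blocked fit (56 of 57 above 0) and 0.71 without the block (54 of 57), whereas the median over all genes was -0.03 in the blocked fit. Without the block, Rrp1b, a nucleolar protein of 60S assembly, rose by 1.32 ± 0.25 (SE, adjusted p = 0.033), and Bysl, which acts in late 40S maturation, rose by 1.32 ± 0.26 (adjusted p = 0.04). Both calls were lost when any of the 3 transient PBS arrays or replicate 1 of transient anti-CD40 was left out, and when the groups were fitted alone, whereas 7 members were called without replicate 2 of transient anti-CD40 (0.813% of all genes). With the block 7 of the members were called without replicate 1 of transient anti-CD40 (3.04% of all genes) and 17 without replicate 1 of transient PBS (7.15% of all genes). Where a group of 2 was left with 1 array, that array was assumed to vary like the other groups.

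**Figure D1:**
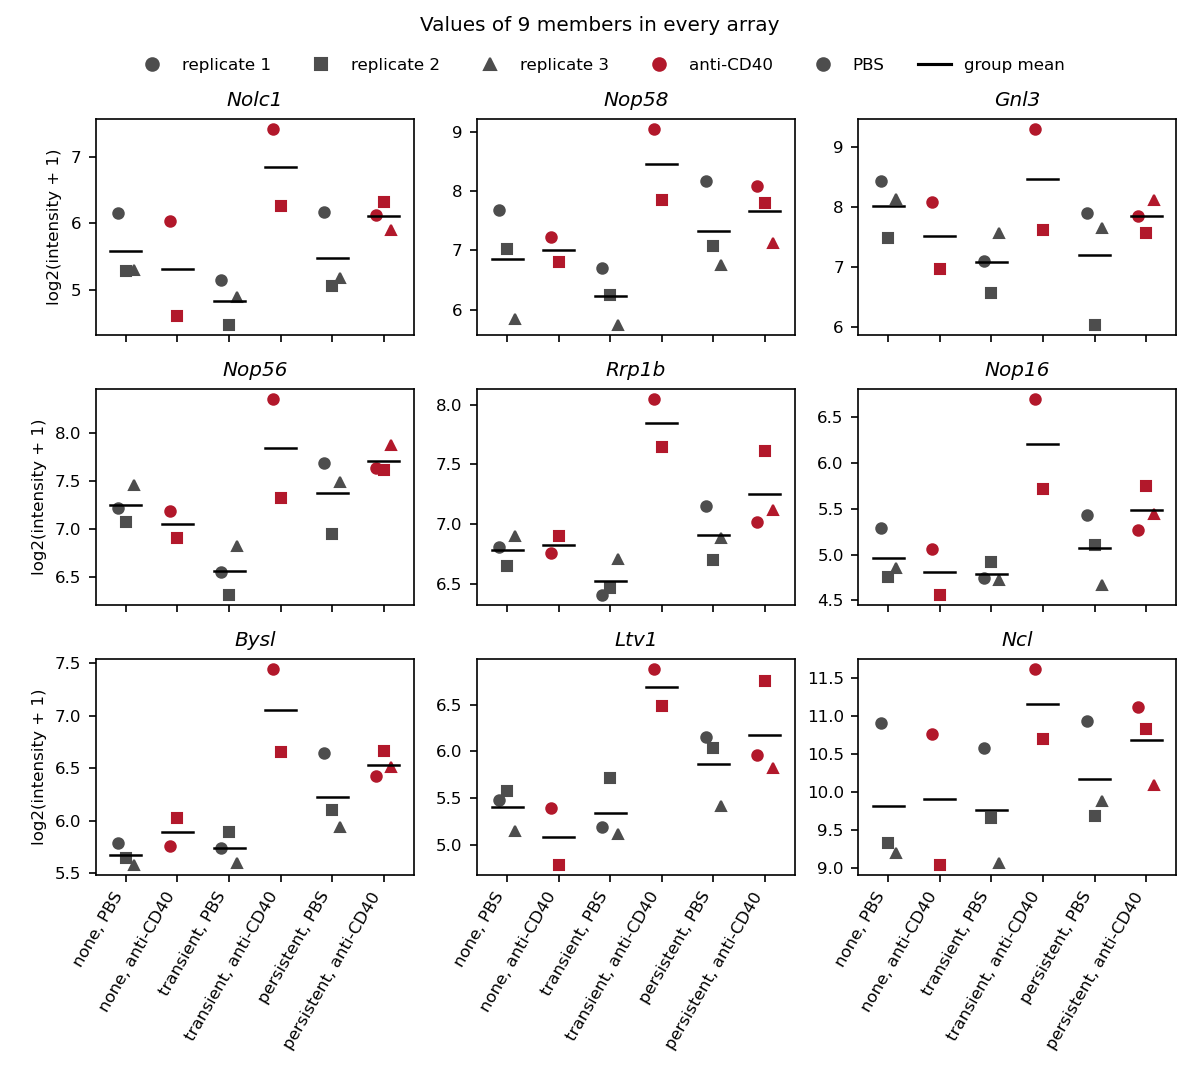
Log2(intensity + 1) of 9 members in each array (points, shape by replicate number, colour by treatment) in the 6 groups, with group means as lines. Replicate 1 of transient anti-CD40 is the highest of all 16 for each of the 9 genes, and both transient anti-CD40 arrays lie above the transient PBS arrays for each of them.

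Nolc1, a nucleolar phosphoprotein that chaperones snoRNPs between nucleolus and Cajal body, gave the largest blocked difference. Its values were 7.42 and 6.26 with transient antigen and anti-CD40, and 5.15, 4.47 and 4.89 with transient antigen and PBS. Both treated arrays lay above all 3 PBS arrays, and the blocked difference was 1.91 ± 0.26, a 3.76-fold rise (adjusted p = 1e-04; 0.07 without the block). Nop58, a core protein of box C/D snoRNPs, which methylate ribosomal RNA, read 9.06 and 7.85 with anti-CD40 against 6.70, 6.24 and 5.74 with PBS. Its groups did not overlap, and its blocked difference was 1.90 ± 0.23 (3.72-fold, adjusted p = 4.6e-05; 0.095 without the block).

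Gnl3 encodes nucleostemin, a nucleolar GTPase known from proliferating and stem cells. It read 9.31 and 7.62 with anti-CD40 against 7.11, 6.57 and 7.57 with PBS. The lower treated array was just above the highest PBS array, and the blocked difference was 1.55 ± 0.28 (2.93-fold, adjusted p = 0.001). Nop56, the partner of Nop58 in box C/D snoRNPs, read 8.36 and 7.32 with anti-CD40 against 6.55, 6.31 and 6.82 with PBS, again without overlap. Its blocked difference was 1.37 ± 0.21 (2.59-fold, adjusted p = 0.00025). The differences of these 4 genes within replicate 1 were 2.27 for Nolc1, 2.36 for Nop58, 2.20 for Gnl3 and 1.81 for Nop56. Within replicate 2 they were 1.79 for Nolc1, 1.61 for Nop58 and 1.05 for Gnl3, and all 4, Nop56 included, were larger in replicate 1 than in replicate 2.

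Rrp1b read 8.05 and 7.65 with anti-CD40 against 6.41, 6.47 and 6.71 with PBS, a gap wider than the spread of either group. Bysl read 7.45 and 6.66 against 5.74, 5.89 and 5.60, also without overlap. Nop16, a further 60S factor, read 6.70 and 5.71 against 4.74, 4.92 and 4.72; it rose by 1.33 ± 0.25 in the blocked fit (adjusted p = 0.0014) and by 1.41 ± 0.30 without the block, where its adjusted p of 0.05 did not pass. Dkc1 encodes dyskerin, the pseudouridine synthase of box H/ACA snoRNPs. It read 9.81 and 8.91 against 8.26, 7.84 and 7.97, and rose by 1.25 ± 0.22 in the blocked fit (adjusted p = 0.00079).

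By role, the blocked calls with anti-CD40 under transient antigen were found in every role. They took 2 of 3 nucleolar phosphoproteins, 3 of 4 box C/D proteins, 3 of 4 box H/ACA proteins, 10 of 14 small subunit processome proteins, 3 of 5 proteins of 40S export and maturation, 8 of 17 60S factors and 3 of 5 helicases. Of the 5 genes of pre-rRNA transcription 1 was called, and this was Polr1b, the second largest subunit of RNA polymerase I, at 0.94 ± 0.22 (adjusted p = 0.0067). Role medians ran from 0.40 for pre-rRNA transcription to 1.28 for the box C/D proteins.

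Members not called were found in each role too. Polr1a, the largest subunit of RNA polymerase I, had a blocked difference of 0.40 ± 0.25 (adjusted p = 0.42). It read 6.80 and 5.74 with anti-CD40 against 5.72, 5.87 and 5.94 with PBS, so the groups overlapped, and the difference was 1.08 within replicate 1 and -0.13 within replicate 2. Rrn3, which recruits the polymerase to the ribosomal DNA, had 0.73 ± 0.24 (adjusted p = 0.059). Ubtf, which opens the ribosomal DNA, was the one member with a negative blocked difference, -0.40 ± 0.19 (adjusted p = 0.25), and its values of 7.42 and 6.78 lay below the PBS values of 7.48, 7.52 and 7.73. Npm1 encodes the very abundant nucleophosmin, and it averaged 12.04 (12.07 in replicate 1), with both arrays above its PBS values of 11.72, 11.52 and 10.74 and a blocked difference of 0.54 ± 0.19 (adjusted p = 0.086). Nucleolin, encoded by Ncl, read 11.63 and 10.70 against 10.58, 9.66 and 9.07 and rose by 1.12 ± 0.24 (adjusted p = 0.0046). Fibrillarin, the methyltransferase of box C/D snoRNPs encoded by Fbl, overlapped between groups, at 10.37 and 8.78 against 8.87, 7.78 and 8.97, but rose in the blocked fit by 1.19 ± 0.25 (adjusted p = 0.0036).

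Within single replicate numbers, 55 of 57 members were higher with anti-CD40 in replicate 1 (median 1.14) and 50 of 57 in replicate 2 (median 0.47). Of all genes, 43.5% and 48.2% were higher there. In both pairs 50 members were higher and 2 were lower. Differences above 1 were reached by 37 members in replicate 1 and by 7 in replicate 2, against 6.47% and 2.84% of all genes. Other probe sets of the same genes, 57 in all, gave a median blocked difference of 0.48, and 49 of them were above 0. Among the 9 with the opposite sign to the chosen probe set, 2 had a mean above the median probe set of the array (4.37).

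**Figure D2:**
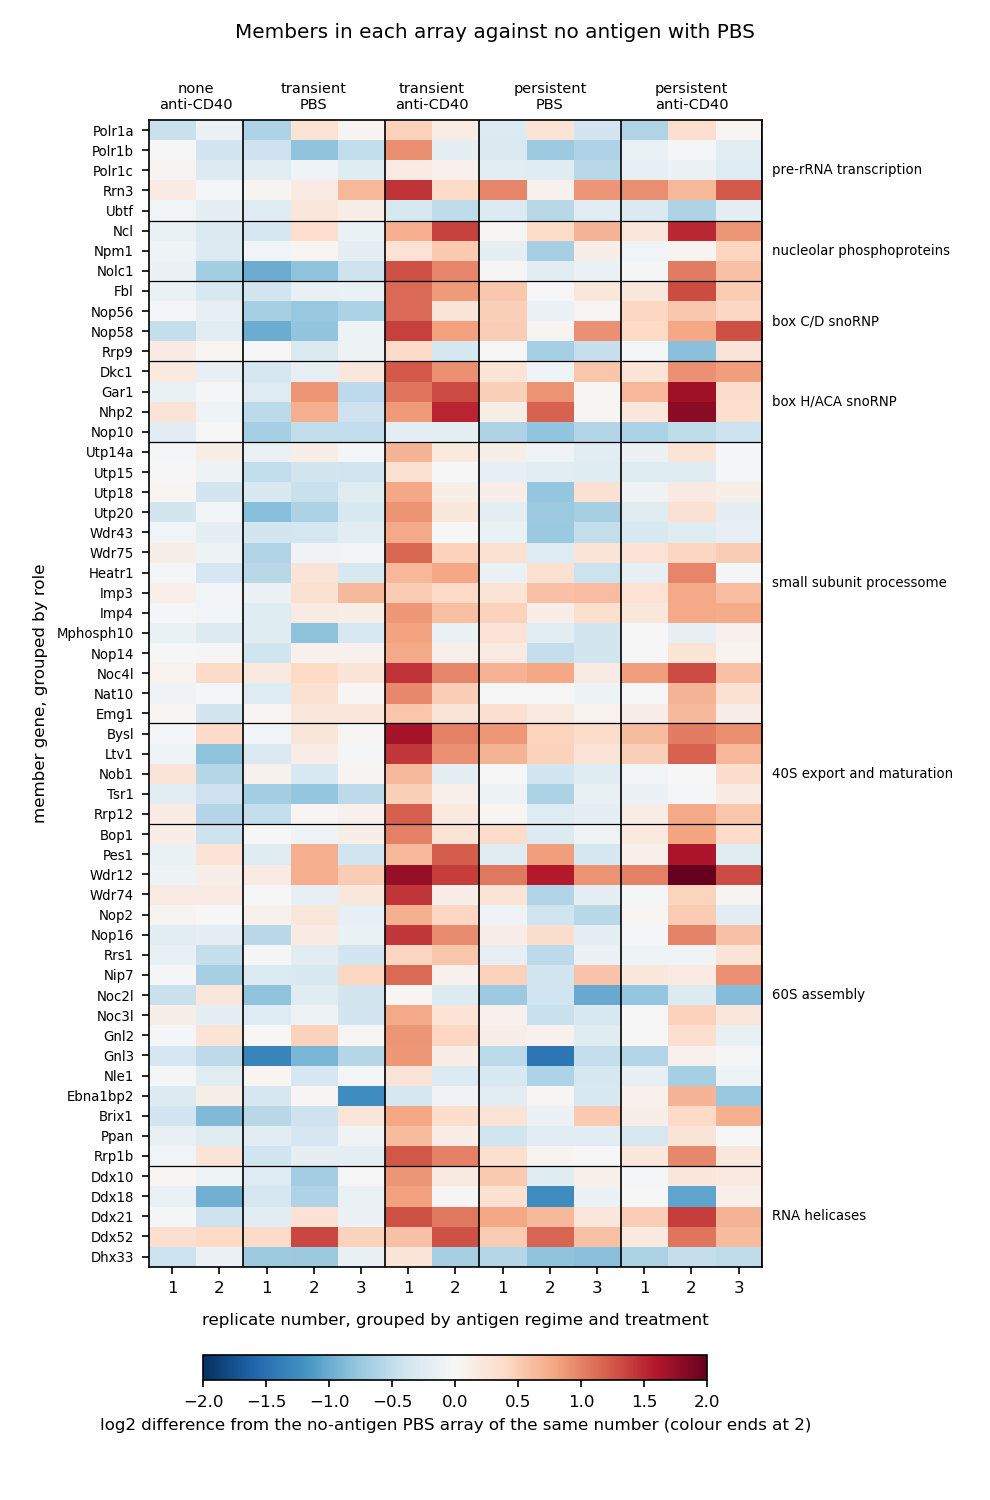
Each row is a member, grouped by role, and each column an array; colour is the log2 difference from the no-antigen PBS array with the same replicate number, and the colour scale ends at 2. The column of replicate 1 of transient anti-CD40 is mostly positive, and the transient PBS columns hold more negative than positive ones (median -0.27, -0.09 and -0.12 in replicates 1, 2 and 3).

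Transient antigen against no antigen, both with anti-CD40, asks what brief antigen does when the dendritic cells are activated. In the blocked fit 28 of 57 members rose and none fell, against 14% of all genes (22.6% with dim genes left out). The members' median was 0.77, and 52 members were above 0. Without the block limma called 0 members, against 0.572% of all genes. An unadjusted p under 0.05 was found for 18 members, all of them higher, and for 10.5% of all genes. With the block 8 members were called without replicate 1 of transient anti-CD40 (5.86% of all genes), and 10 without replicate 2 of no antigen with anti-CD40 (6.1%). Without the block, 2 were called without replicate 1 of no antigen with anti-CD40 (1.98%) and 1 without replicate 2 of transient anti-CD40 (0.308%). The replicate 2 arrays without antigen have array numbers in a run of their own, apart from those of the replicate 2 arrays with antigen, so within replicate 2 the run and the antigen cannot be told apart. With runs of array numbers as the block in place of the replicate number, 20 members were called here, against 12.2% of all genes, and 10 in the comparison of persistent with no antigen, against 13.9%. This comparison shares the transient anti-CD40 arrays with the one above, so the lists of genes are not independent. The 57 other probe sets gave a blocked median of 0.35, with 41 above 0. Among them 17 had the opposite sign to the chosen probe set, 8 of these with a mean above the median probe set.

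The 8 largest blocked differences were those of Ltv1 (1.60), Wdr12 (1.56), Nolc1 (1.52), Nop58 (1.44), Nop16 and Ddx21 (1.39 each), Gar1 (1.27) and Ncl (1.26). Ltv1 is an adaptor in the last steps of 40S maturation. It read 6.89 and 6.49 with transient antigen and 5.39 and 4.78 without antigen, 2 pairs that lay apart by more than their own spread, and rose by 1.60 ± 0.26 (3.04-fold, adjusted p = 0.00035; 0.064 without the block). Nop16 read 6.70 and 5.71 against 5.06 and 4.56 and rose by 1.39 ± 0.26 (adjusted p = 0.0012; 0.073 without the block), again without overlap. Wdr12 belongs with Pes1 and Bop1 to the PeBoW complex, which is needed for processing of the 28S precursor. It rose by 1.56 ± 0.27 (adjusted p = 0.00054), while Bop1 rose by 0.78 ± 0.26 (adjusted p = 0.049) and Pes1 stood at 0.86 ± 0.30 (adjusted p = 0.062). By role the calls took 2 of 3 phosphoproteins, 3 of 4 box C/D, 3 of 4 box H/ACA, 5 of 14 processome, 4 of 5 40S, 8 of 17 60S and 2 of 5 helicase genes. In pre-rRNA transcription 1 of 5 was called, namely Rrn3 at 0.84 ± 0.25 (adjusted p = 0.033).

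Persistent antigen against no antigen with anti-CD40 gave 13 members higher and none lower in the blocked fit, against 16.4% of all genes called, so the members' share of 22.8% was nearer to the background than in the comparisons of transient antigen. With dim genes left out 26.3% of genes were called. The members' share, taken from the fit of all genes, did not exceed that. The blocked median was 0.33 and the median without the block 0.41 (0.22 after cyclic loess), with 47 members above 0. The 57 other probe sets of these genes gave a blocked median of 0.00, with 28 above 0. Of these 57, 26 had the opposite sign to the chosen probe set, 15 of them with a mean above the median probe set, so the rise depended on the probe set chosen. Within replicate 1, 33 of 57 members were higher with persistent antigen (median 0.06), and within replicate 2, 48 (median 0.62). Of all genes, 47.8% and 46.6% were higher there. Without the block limma called 0 members, against 2.37% of all genes. An unadjusted p under 0.05 was found for 6 members, all higher, and for 14.1% of all genes. Wdr12 led with 1.55 ± 0.25 (2.92-fold, adjusted p = 2e-04), followed by Ltv1 (1.26), Gar1 (1.17), Ddx21 (1.16), Ncl (1.06), Nop58 (0.99), Fbl (0.93) and Brix1 (0.91). Ddx21, a nucleolar RNA helicase that acts in ribosomal RNA transcription and processing, read 7.48, 7.87 and 7.57 with persistent antigen and 6.95 and 6.06 without antigen. These groups did not overlap. Ltv1 read 5.96, 6.76 and 5.82 with persistent antigen against 5.39 and 4.78, also without overlap. With the block 3 members were called without replicate 2 of no antigen with anti-CD40, where 8.03% of all genes were, and 6 without replicate 2 of persistent anti-CD40, where 10.8% were. Neither count stood above that background. Without the block 1 was called without replicate 1 of no antigen with anti-CD40 (4.16% of all genes). The difference of Ncl without the block was 0.78, and it was -0.08 without replicate 2 of no antigen with anti-CD40.

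With PBS, the antigen regimes differed from no antigen in few members and in both directions. Transient against no antigen with PBS gave 0 members in limma without the block, against 0.126% of all genes. An unadjusted p under 0.05 was found for 2 members, both lower, and for 4.64% of all genes. With the block 1 rose and 4 fell, against 2.89% of all genes, and the median was -0.12 with 16 of 57 above 0. Gnl3 fell by 0.94 ± 0.24 (adjusted p = 0.04), Nop56 by 0.69 ± 0.18 (adjusted p = 0.046), Tsr1, a factor of pre-40S particles, by 0.66 ± 0.15 (adjusted p = 0.02) and Nop10, the smallest box H/ACA protein, by 0.56 ± 0.13 (adjusted p = 0.028). Ddx52, a helicase of the small subunit processome, rose by 0.73 ± 0.19 (adjusted p = 0.046), and by 0.38, 1.34 and 0.46 within replicates 1, 2 and 3. The limit given above, that within replicate 2 the array run and the antigen cannot be told apart, also holds for the PBS comparisons with no antigen. Nop10 read 9.78, 9.94 and 10.15 with transient antigen and 10.45, 10.44 and 10.64 without antigen, so every transient array was below every array without antigen. Nop56 likewise did not overlap, at 6.55, 6.31 and 6.82 against 7.22, 7.07 and 7.46.

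Persistent against no antigen with PBS gave 0 members without the block, against 3.57% of all genes. An unadjusted p under 0.05 was found for 4 members, of which 2 were higher, and for 13% of all genes. In the blocked fit 3 rose and 5 fell, against 16.7% of all genes, and the share of members called, 14%, was below that background. Wdr12 rose by 1.18 ± 0.22 (2.26-fold, adjusted p = 0.00064), Ddx52 by 0.75 ± 0.19 (adjusted p = 0.0086) and Rrn3 by 0.65 ± 0.21 (adjusted p = 0.036). Gnl3 fell by 0.83 ± 0.24, Dhx33 by 0.73 ± 0.21, Noc2l by 0.71 ± 0.19, Nop10 by 0.67 ± 0.13 (adjusted p = 0.0014) and Nle1 by 0.41 ± 0.13. Nop10 read 9.83, 9.65 and 10.05 with persistent antigen, all below its arrays without antigen. Nle1, a 60S factor, read 3.78, 3.56 and 3.65 against 4.08, 4.17 and 3.98, but it was the one member with group means below the median probe set.

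Persistent against transient antigen with PBS gave 0 members without the block, against 0.929% of all genes. An unadjusted p under 0.05 was found for 2 members, both higher, and for 11.2% of all genes. In the blocked fit Nop58 rose by 1.11 ± 0.20 (2.16-fold, adjusted p = 0.001), Nop56 by 0.81 ± 0.18 (adjusted p = 0.0056) and Wdr12 by 0.71 ± 0.22 (adjusted p = 0.041), and none fell. These 3 members stand against 11.4% of all genes called. Nop58 read 8.18, 7.08 and 6.75 with persistent antigen against 6.70, 6.24 and 5.74 with transient antigen. Nop56 read 7.69, 6.95 and 7.49 against 6.55, 6.31 and 6.82. In both genes the lowest persistent array lay just above the highest transient array. The median over the members was 0.11, with 37 above 0.

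Anti-CD40 against PBS under persistent antigen called 0 members by limma in either fit, and 0 and 0% of all genes without and with the block. Of the blocked differences 55 of 57 were above 0, with a median of 0.30 against 0.02 over all genes. The members were measured on the same arrays, so they are not independent of each other. At an unadjusted p under 0.05 there was 1 member without the block and 10 with it, all higher, against 0.605% and 2.66% of all genes. The largest blocked differences were those of Gnl3 at 0.65 ± 0.24 and Nolc1 at 0.64 ± 0.23 (adjusted p = 1 for both). The 2 smallest p-values without the block were those of Nop2, the methyltransferase of 28S ribosomal RNA, and Noc3l, a factor of 60S export. Nop2 read 5.58, 5.97 and 5.62 with anti-CD40 against 5.48, 5.06 and 5.30 with PBS, without overlap, and Noc3l read 6.23, 6.50 and 6.31 against 6.32, 5.59 and 5.78, with overlap. The 3 replicate numbers differed: 15 members were higher with anti-CD40 in replicate 1 (median -0.05), 52 in replicate 2 (median 0.62) and 54 in replicate 3 (median 0.32). Of all genes, 48.2%, 53.6% and 57.7% were higher there. In all 3 pairs 12 members were higher, and 45 were mixed. The 57 other probe sets gave a blocked median of 0.11, with 39 above 0. Among them 16 had the opposite sign to the chosen probe set, 7 of these with a mean above the median probe set.

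Without antigen, anti-CD40 against PBS called 0 members by limma in either fit, against 0% of all genes without the block and 0.0055% with it. The blocked median was -0.11, with 14 of 57 members above 0. In both replicate pairs 27 members were lower with anti-CD40 and 4 were higher. At an unadjusted p under 0.05 there were 0 members without the block and 1 with it, which was lower. The shares of all genes were 1.74% and 5.3%. The 2 smallest p-values without the block belonged to the helicase gene Ddx18 and to Emg1, a methyltransferase of 18S ribosomal RNA. Ddx18 read 7.95 and 7.37 with anti-CD40 against 8.08, 8.33 and 8.02 with PBS, and Emg1 read 8.79 and 8.25 against 8.75, 8.62 and 8.99. Neither passed, with adjusted p of 0.9 for Ddx18 and 0.92 for Emg1 in the blocked fit.

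**Figure D3:**
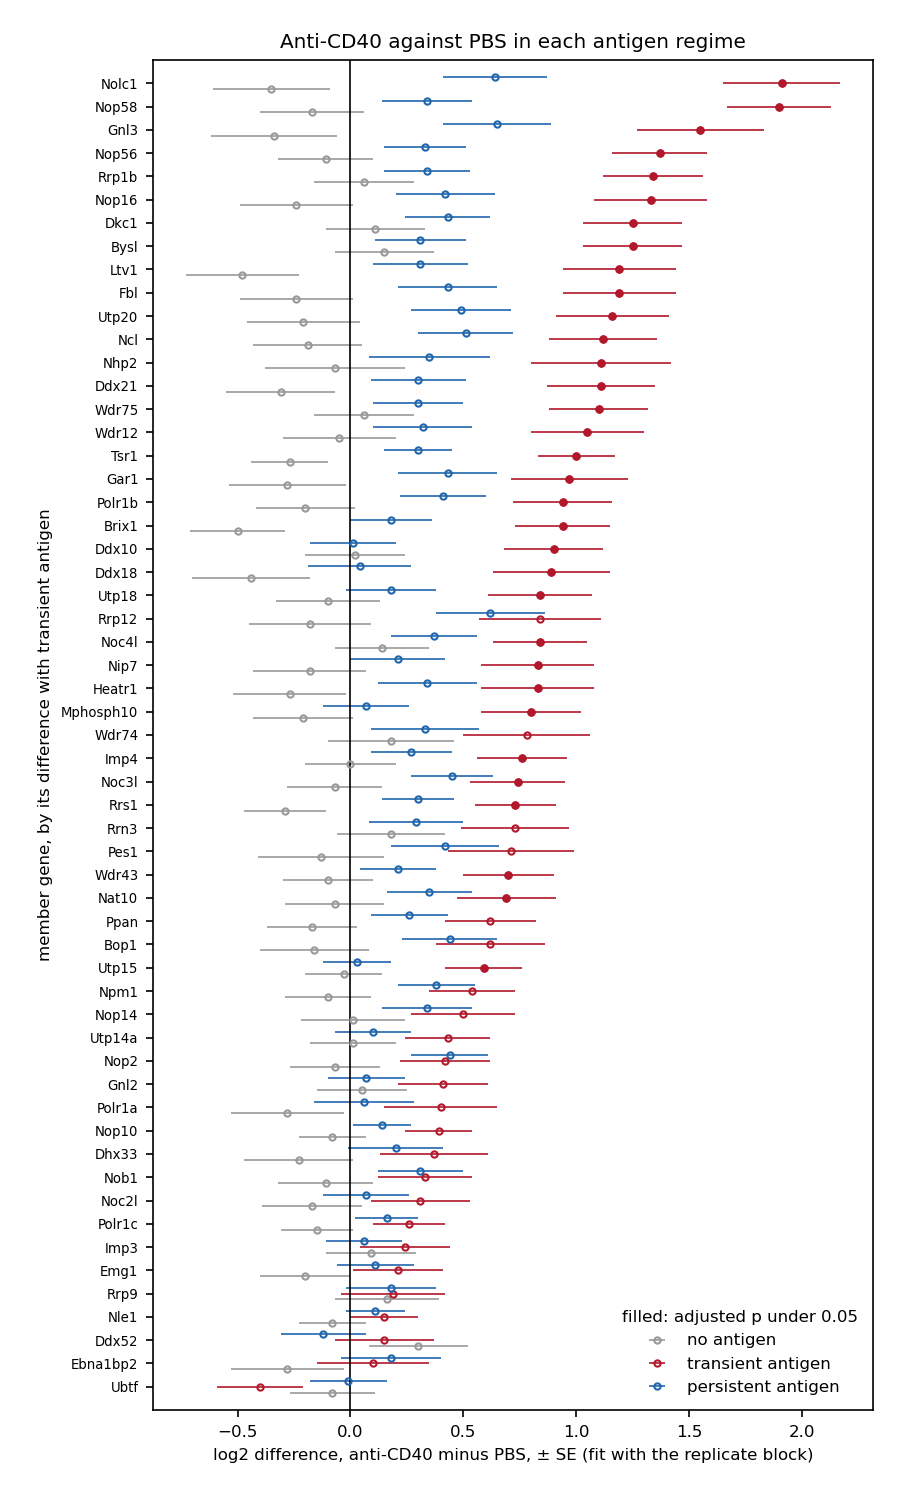
Log2 difference of anti-CD40 minus PBS for the 57 members (rows, ordered by the difference with transient antigen) with no, transient and persistent antigen, from the blocked fit; bars are standard errors and filled points passed an adjusted p under 0.05. The 33 filled points are all of transient antigen, and the points of persistent antigen lie mostly between 0 and 0.65. Those of no antigen lie between -0.50 and 0.30, with 14 of 57 above 0.

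Whether the difference made by anti-CD40 itself differs between antigen regimes was tested as an interaction. Transient against no antigen gave 17 members with a larger anti-CD40 difference under transient antigen in the blocked fit and none with a smaller one, against 3.69% of all genes (6.96% with dim genes left out). Without the block limma called 0 members and 0% of all genes. An unadjusted p under 0.05 was found for 16 members, all in that direction, and for 4.92% of all genes. Nolc1 (2.26 ± 0.36, adjusted p = 0.0033), Nop58 (2.07 ± 0.32, adjusted p = 0.0033) and Gnl3 (1.89 ± 0.38, adjusted p = 0.01) were the largest. The count of 17 was 2 without replicate 1 of transient anti-CD40 (0.544% of all genes), 4 without replicate 2 of no antigen with anti-CD40 (0.588%), 9 without replicate 1 of transient PBS (2.19%) and 7 with replicates 1 and 2 only (1.53%). Persistent against transient antigen gave Nop58 alone, whose anti-CD40 difference was smaller by 1.56 under persistent antigen (-1.56 ± 0.31, adjusted p = 0.016), against 1.79% of all genes in the blocked fit. Without the block it called 0 members and 0% of all genes. An unadjusted p under 0.05 was found for 10 members, none of them higher, and for 3.45% of all genes. The values of Nolc1 (-1.27 ± 0.34, adjusted p = 0.068) and Nop56 (-1.04 ± 0.28, adjusted p = 0.066) did not pass.

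Persistent against transient antigen, both with anti-CD40, called 0 members by limma in either fit, against 0.0055% of all genes without the block and 0.077% with it. At an unadjusted p under 0.05 there were 2 members without the block and 16 with it, none of them higher under persistent antigen. The shares of all genes were 1.95% and 6.11%. The blocked median was -0.35. The 2 smallest p-values without the block belonged to Rrp1b, which read 7.02, 7.61 and 7.12 with persistent antigen against 8.05 and 7.65, and to Nop16, which read 5.27, 5.75 and 5.44 against 6.70 and 5.71. Rrp1b did not overlap and Nop16 did. The direction differed between replicates: 2 of 57 members were higher with persistent antigen in replicate 1 (median -0.79) and 38 in replicate 2 (median 0.10). Of all genes, 48.1% and 46% were higher there.

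Ranked by group mean, transient antigen with anti-CD40 was the highest of the 6 groups in 44 of 57 members, against 18.3% of all genes. Persistent antigen with anti-CD40 was second in 32, and the share of all genes was not computed for that rank. The lowest group was no antigen with anti-CD40 in 23 members (20.7% of all genes), transient antigen with PBS in 18 (10.9%) and persistent antigen with PBS in 13 (19.3%). The last of these counts was near its share of all genes. For Ncl the means were 11.17 ± 0.66 (SD, n = 2) with transient antigen and anti-CD40, 10.68 ± 0.54 (n = 3) with persistent antigen and anti-CD40 and 10.17 ± 0.68 (n = 3) with persistent antigen and PBS. Its 3 lower groups, at 9.77 to 9.90, did not differ beyond their spread, and the 3 upper means lay within an SD of their neighbours. Npm1 was highest at 12.04 ± 0.05 (n = 2) and lowest with persistent antigen and PBS at 11.16 ± 0.40 (n = 3).

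Polr1a ranged from 5.68 ± 0.30 (n = 2, no antigen with anti-CD40) to 6.27 ± 0.76 (n = 2, transient with anti-CD40), a span within the spread of the second group. Polr1b ranged from 5.52 ± 0.31 (n = 3, transient with PBS) to 6.48 ± 0.93 (n = 2, transient with anti-CD40). Rrn3 differed from most members in being highest with persistent antigen and anti-CD40, at 6.77 ± 0.79 (n = 3), next to 6.64 ± 1.53 (n = 2) with transient antigen and anti-CD40. Its wide SDs came with the replicate number: replicate 2 read 5.16 to 5.85 and replicate 1 read 6.29 to 7.73. Dkc1 ran from 8.03 ± 0.21 (n = 3, transient with PBS) to 9.36 ± 0.64 (n = 2, transient with anti-CD40), and Fbl from 8.35 ± 1.06 (n = 2, no antigen with anti-CD40) to 9.57 ± 1.12 (n = 2, transient with anti-CD40).

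Genes of the same pathway that are not among the 58 mostly rose, as the members did, in the comparisons with anti-CD40 given next. Of 109 further ribosome biogenesis genes, 36 rose and 1 fell with anti-CD40 under transient antigen in the blocked fit, against 10.5% of all genes, with a median of 0.50. Without the block 2 of the 109 rose there. Among these genes, Pno1 (1.85 ± 0.27) and Dis3 (1.56 ± 0.25) act in 40S maturation and in the RNA exosome, and Naf1 (1.85 ± 0.24) in box H/ACA assembly. Against no antigen with anti-CD40, 47 of the 109 rose under transient antigen in the blocked fit (14% of all genes called), and 31 rose and 2 fell under persistent antigen (16.4%). With dim genes left out, 22.6% and 26.3% of genes were called in these 2 comparisons. Without the block limma called 0 of the 109 in the first of them and 1 in the second, against 0.572% and 2.37% of all genes. In the first, 26 of the 109 had an unadjusted p under 0.05, against 10.5% of all genes. Of the 11 among them that belong to RNA polymerase I transcription, 1 rose with anti-CD40 under transient antigen in the blocked fit, with a median of 0.22. Without the block limma called 0 of the 11, and 1 had an unadjusted p under 0.05, against 9.29% of all genes. With persistent against no antigen and PBS, 18 of the 109 rose and 2 fell in the blocked fit, against 16.7% of all genes. Their median was 0.08, where that of the members was -0.09, and without the block limma called 0 of the 109.

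The proteins of the mature ribosome were given for comparison. Of 80 cytosolic ribosomal proteins listed, 44 were measured, so a large part of the family has no value here. Of these 44, 1 rose and 2 fell with anti-CD40 under transient antigen in the blocked fit (median -0.14), against 10.5% of all genes. With persistent against no antigen and PBS, 1 rose and 19 fell in the blocked fit (median -0.43), against 16.7% of all genes. Without the block limma called 0 of the 44 in both comparisons. An unadjusted p under 0.05 was found for 0 and 10 of them, against 9.29% and 13% of all genes. Of 42 DNA replication genes, 40 rose with anti-CD40 under transient antigen in the blocked fit (median 1.75), and 10 without the block, against 10.5% and 0.638% of all genes. With persistent against no antigen and PBS, 40 rose in the blocked fit (median 1.67) and 22 without the block, against 16.7% and 3.57%. With persistent against transient antigen and PBS, 39 rose in the blocked fit (median 1.63) and 14 without the block, against 11.4% and 0.929%. In those PBS comparisons the medians of the members were -0.09 and 0.11. Of the 11 T cell markers none had a positive blocked difference with anti-CD40 under transient antigen (median -0.51, 1 called lower), and of the 7 B cell markers 1 was called higher in that fit. Summed T cell intensities were 8740 to 9750 in the transient anti-CD40 arrays and 11500 to 12900 in the transient PBS arrays. Summed B cell intensities were 337 to 358 and 231 to 296, with 5 and 4 of the 7 genes below the median probe set. The part of other cells in the members' differences was not tested.

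**Figure D4:**
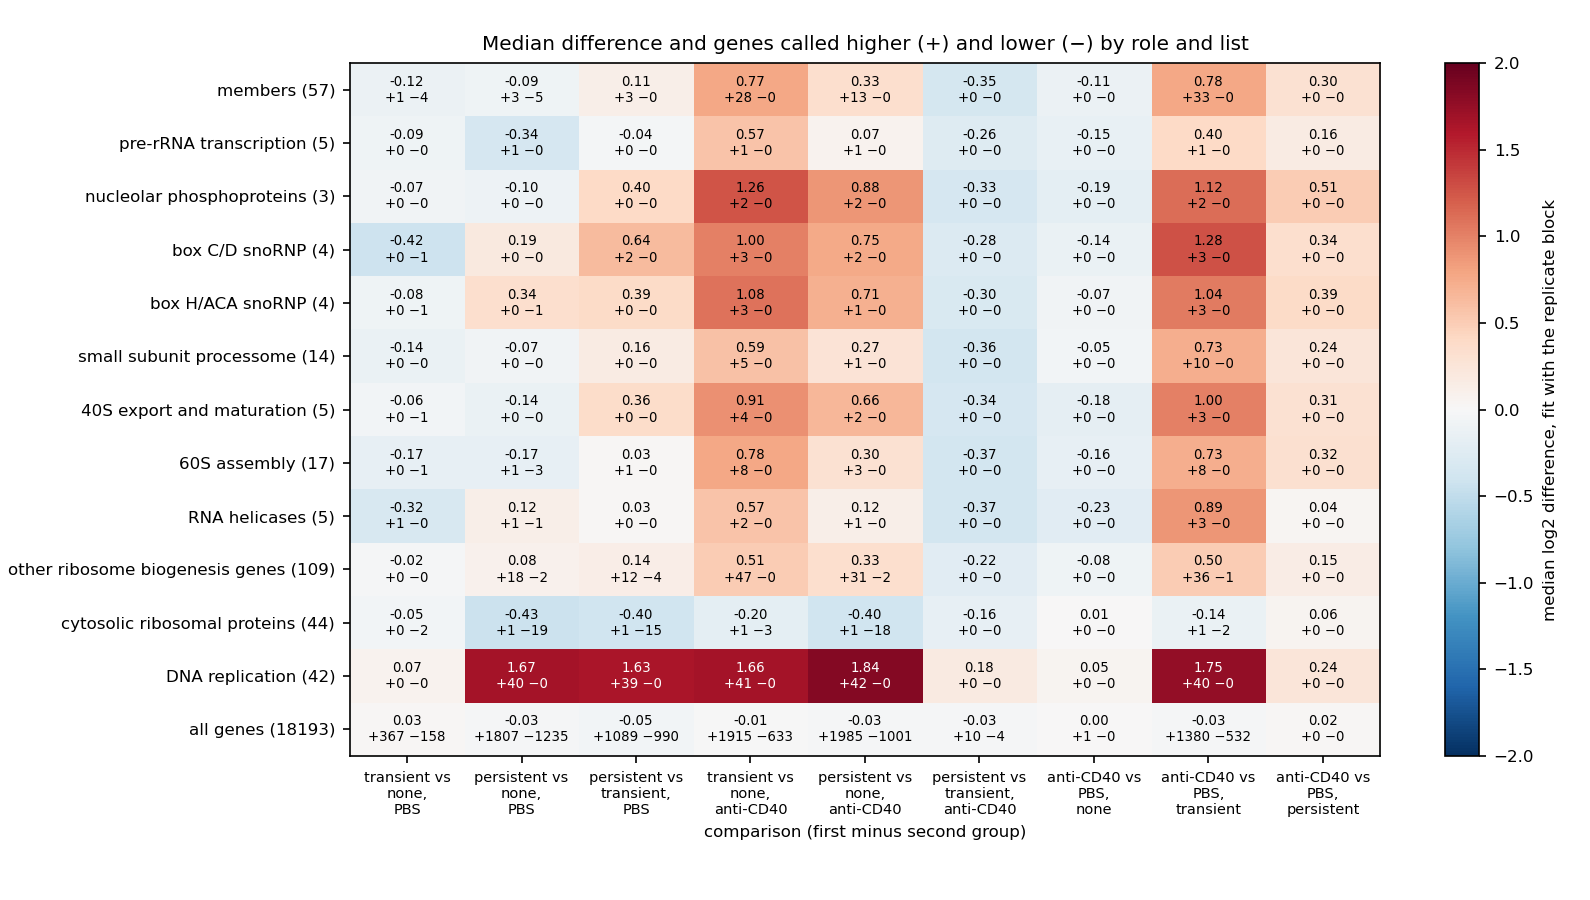
Median log2 difference (colour and upper number) and numbers of genes called higher and lower (lower line) in the blocked fit, for the members, their roles and other lists (rows, with the number of genes) in 9 comparisons (columns). The members' medians exceed 0.7 in the comparisons of transient anti-CD40 with transient PBS and with no antigen, and DNA replication exceeds 1.6 in 5 comparisons.

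Myc, a known activator of these genes, had values of 3.98 to 6.38 over the 16 arrays. It read 5.76 and 5.49 with transient antigen and anti-CD40 against 5.12, 4.99 and 4.48 with transient antigen and PBS, without overlap, and the blocked difference of 0.53 ± 0.23 did not pass (adjusted p = 0.18). With persistent against no antigen and PBS it fell by 1.14 ± 0.20 (adjusted p = 0.00034 in the blocked fit; 0.089 without the block), at 4.52, 4.62 and 4.08 against 5.43, 6.38 and 4.82. With anti-CD40, its blocked difference between transient and no antigen was 0.15 ± 0.24 (adjusted p = 0.77), where 28 members rose. Between persistent and no antigen with anti-CD40 it fell by 0.84 ± 0.23 (adjusted p = 0.014, and 0.19 without the block), where 13 members rose. For both falls, the limit given above on array runs within replicate 2 holds. The persistent values of Myc lay near or below the median probe set (4.37), with 3.98 to 4.83 under anti-CD40. These are RNA values of cells sorted at 60 h, and the part of MYC in the members' differences was not tested. Among members with a RefSeq window, the E-box CACGTG was found in 6 of the 31 called with anti-CD40 under transient antigen (19.4%) and in 5 of the 20 not called (25%). CCGGAAG was found in 12 of the 31 (38.7%) and in 8 of the 20 (40%). The leading pair differed: Nolc1 holds CCGGAAG in the stretch printed above and Nop58 holds neither word there.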

How the data were processed

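RNA of sorted T cells was amplified, labelled with biotin and hybridised to Affymetrix arrays, 16 in all. RMA was named per the submitters' processing notes, with no version, and the deposited values are linear intensities per probe set. Of 45101 probe sets, 34945 name 1 gene symbol in the platform annotation, 932 name several and 9160 are not in it. Log2(intensity + 1) was computed here from the deposited intensity values. One probe set per gene, the brightest on average, gave 18193 genes.

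Group means were fitted in limma 3.58.1 (R 4.3.3, eBayes with an intensity trend) over all 16 arrays, with Benjamini-Hochberg adjustment over all genes and a threshold of 0.05. The blocked fit added the replicate number. That the numbers pair arrays comes from the data: deviations from group means correlated at 0.48 to 0.81 in 36 same-numbered pairs. The median of -0.53 in 70 other pairs is not separate evidence, because deviations sum to 0 within a group. Array number and depth of signal limit the precision.

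The members and lists were chosen with earlier results of these data known. In each comparison at most the 8 largest called members were named, from the blocked fit where fewer than 3 passed without it. Array values were given for the 4 largest changes in the comparison with most calls and for the 2 smallest p-values in each other one, and at least group values for Ncl, Npm1, Fbl, Nop56, Nop58, Dkc1, Polr1a, Polr1b and Rrn3. Further array values were given for Rrp1b, Bysl, Nop16, Dkc1, Ubtf and the genes of that fixed set, chosen after their values were seen. Alternatives tried were blocks for the replicate number and for runs of array numbers, groups alone, no trend, dim genes left out, mean of probe sets, cyclic loess, a pseudocount of 16 and leaving out each array.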

Additional observations from a re-analysis of the deposited data

Results flagged for a closer look

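In the blocked fit the difference made by anti-CD40 was larger with transient antigen than without antigen for 17 members, by the interaction term. On the log2 scale the interaction was 2.26 for Nolc1, 2.07 for Nop58, 1.89 for Gnl3, 1.67 for Ltv1, 1.57 for Nop16 and 1.48 for Nop56. It was 1.44 for Brix1, 1.43 for Fbl, 1.42 for Ddx21, 1.37 for Utp20, 1.33 for Ddx18 and 1.31 for Ncl. It was 1.28 for Rrp1b, 1.27 for Tsr1, 1.14 for Polr1b, 1.14 for Dkc1 and 1.02 for Rrs1. Adjusted p ran from 0.0033 to 0.045 in limma with the block, and from 0.72 to 1 without it. With persistent against transient antigen the difference made by anti-CD40 was smaller for Nop58, with an interaction of -1.56 ± 0.31 (adjusted p = 0.016 with the block, 1 without it).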

How the results depend on the processing

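With the replicate block, the members called rose from 0 to 5, 8 and 3 in the PBS comparisons of transient with no, persistent with no and persistent with transient antigen. They rose from 0 to 28 and 13 for transient and persistent against no antigen with anti-CD40, from 2 to 33 for anti-CD40 under transient antigen, and from 0 to 17 and 1 for the interactions of transient with no and persistent with transient antigen. A block for runs of array numbers gave 5 and 4 (persistent against no and transient antigen with PBS), 20 and 10 (transient and persistent against no antigen with anti-CD40), 34 (anti-CD40 under transient antigen), and 21 and 2 (interactions). Without the block, anti-CD40 under transient antigen gave 0 with the groups alone, 4 without the intensity trend, 4 with dim genes left out, 4 with the mean of probe sets and 8 with cyclic loess. Transient against no antigen with anti-CD40 gave 2 without the trend, 1 with dim genes left out and 2 with the mean of probe sets, and persistent against no antigen with PBS gave 1 without the trend. Leaving out each array gave 0 to 7, 0 to 2 and, for persistent against no antigen with anti-CD40, 0 to 1. Alternatives to the blocked fit were chosen after seeing the data. Cyclic loess took its 28 calls to 18, and replicates 1 and 2 alone took 17 to 7. Leaving out each array gave 8 to 31 for the 28, 3 to 17 for the 13, 7 to 32 for the 33 and 2 to 22 for the 17. Among named members, 573 values kept direction and call, 106 became calls, 10 lost the call and 1 reversed: Ncl in persistent against no antigen with anti-CD40, at -0.08 to 1.64 when 1 array was left out. The cause was not tested. Cyclic loess took the members above 0 from 16 to 9 in transient against no antigen with PBS and from 13 to 22 in anti-CD40 without antigen. By group means, Nle1 alone among the members fell below the median probe set (4.37), a cut that is not a measured background. Single arrays of Rrp12 also read below it, such as 3.61 and 3.94 in replicate 2 of no antigen with anti-CD40 and of persistent antigen with PBS.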
